A study of Schizosaccharomyces pombe with 6 samples.

Results

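Cells that live in oxygen make superoxide and hydrogen peroxide, and antioxidant enzymes remove them. In fission yeast, superoxide dismutase turns superoxide into hydrogen peroxide, which catalase, glutathione peroxidase and the peroxiredoxin Tpx1 then break down. Tpx1 is recycled by thioredoxin and thioredoxin reductase, and when strong peroxide over-oxidises it, sulfiredoxin restores it. Glutathione transferases attach glutathione to reactive compounds, and metallothionein binds metal ions through its many cysteines. In dividing fission yeast, the MAP kinase Sty1 with the transcription factor Atf1, and the AP-1-like factor Pap1, induce many of these genes after oxidative stress.

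Here 9 such genes were followed, chosen by their standard names among 6952 genes of the count table. They were ctt1 (catalase), sod1 (superoxide dismutase), gpx1 (glutathione peroxidase), tpx1 (peroxiredoxin), srx1 (sulfiredoxin), trr1 (thioredoxin reductase), gst1 and gst2 (glutathione transferases) and zym1 (metallothionein). All 9 passed the filter on low counts. RNA was sequenced from 6 cultures of Schizosaccharomyces pombe, a unicellular yeast, on day 6 of chronological ageing in minimal medium, when cells no longer divide. In 3 cultures, called aal1-pOE, a plasmid expressed aal1, a long non-coding RNA, under the medium-strength, thiamine-repressible P41nmt1 promoter. The other 3 carried the empty plasmid (empty-vector control, evc). All cultures shared the 972h-/leu1-32 strain background. The comparison asks whether the transcripts of this defence system stand at another level when aal1 is in excess.

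Levels are given as CPM, a gene's counts scaled to the same total in every library, with TMM factors unless library totals are named (TMM corrects library sizes for differences in composition). Library totals ran from 5839863 to 13164975 counts. The aal1 RNA itself had 54, 141 and 58 counts in replicates 1, 2 and 3 of aal1-pOE, against 4, 2 and 4 counts in the evc replicates (log2 fold change 3.39 ± 0.58 SE, edgeR adjusted p = 0.0106), which checks the labels. Genes for cytosolic ribosomal proteins took 2.78 to 3.83% of all counts in aal1-pOE and 6.83 to 11.5% in evc. TMM factors were 1.04 to 1.80 in aal1-pOE and 0.763 to 0.850 in evc. Over all genes, the log2 fold change had a median of 0.08 with TMM and of 0.80 with library totals. Also, aal1-pOE replicate 2 and evc replicate 1 stood apart from the other libraries of their groups. A chi-square over genes, divided by its degrees of freedom, was 298 and 273 between aal1-pOE replicate 2 and replicates 1 and 3, against 20.3 between those other two. In evc it was 71.6 and 72.6 between replicate 1 and replicates 2 and 3, against 5.34 between those other two. The statistic was taken on raw counts and grows with library depth. The deepest library was aal1-pOE replicate 2, at 13164975 counts. Summed over 6 genes that peak in dividing cells, the level was 263, 335 and 330.2 CPM in the aal1-pOE libraries, against 241, 253 and 210.5 CPM in evc, and by library totals 282, 602 and 342 CPM, against 204, 193 and 162 CPM. Of these 6 genes, 0 were called (edgeR), beside 1.36% of all tested genes called higher and 4.64% lower. At an unadjusted p under 0.05, 1 was higher, cdc22, beside 14.6% of all tested genes. With TMM, cdc22 alone held 148, 187 and 193 CPM of the sums in the aal1-pOE libraries, against 113, 92.7 and 62.2 CPM in evc. The log2 fold change of plo1 was -0.49. The part of any of these traits in the results below was not tested. In bulk RNA, fewer cells that express a gene and less RNA per cell cannot be told apart.

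No antioxidant gene was called changed in aal1-pOE cells. In edgeR's quasi-likelihood test, with p-values adjusted over all genes and a threshold of 0.05, 0 of the 9 rose and 0 fell. Over all 5823 genes tested, 1.36% were called higher and 4.64% lower in aal1-pOE. At an unadjusted p under 0.05, 2 of the 9 were lower, tpx1 and zym1, and 0 were higher, where 12.5% of all tested genes were lower and 14.6% higher at that threshold. The same 2 genes were called lower by the edgeR likelihood ratio test (8.11% of all genes lower, 6.82% higher) and by DESeq2 (8.79% lower, 6.75% higher), and 0 genes by limma-voom. The median log2 fold change of the 9 genes was -0.18, with 4 values above 0 and 5 below, beside 0.08 for all genes, and with library totals it was 0.49, beside 0.80 for all genes. Together the 9 genes took 0.351%, 0.426% and 0.302% of all counts in replicates 1, 2 and 3 of aal1-pOE, against 0.311%, 0.421% and 0.410% in evc, so the groups overlapped.

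**Figure D1:**
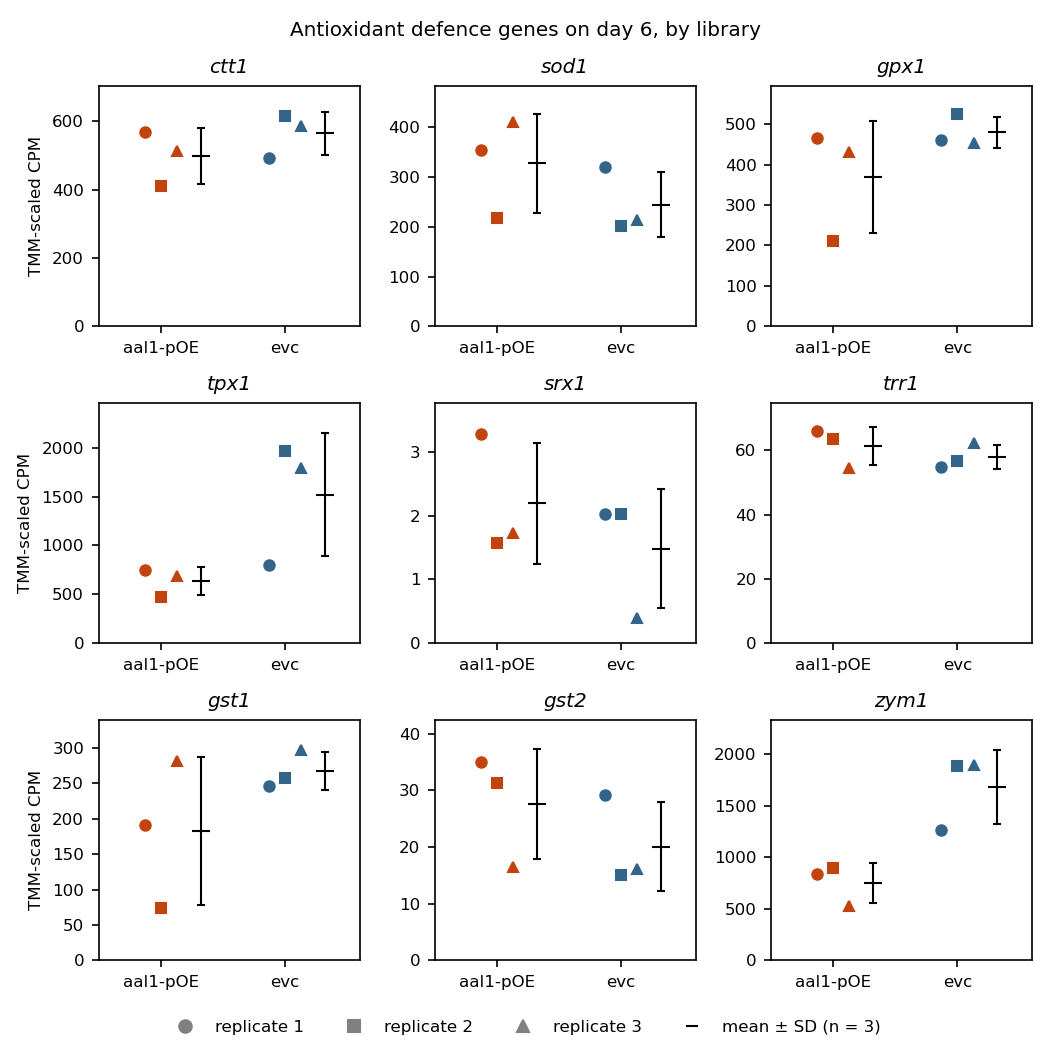
TMM-scaled CPM (vertical axes, from 0) of the 9 antioxidant genes in each of the 6 libraries, with aal1-pOE left of evc; symbols mark replicates and the black bars give the mean ± SD of 3 libraries. The points of tpx1 and zym1 do not overlap between the groups, with tpx1 of evc replicate 1 at 798 CPM close to the highest aal1-pOE value of 749 CPM, and the other 7 genes overlap.

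The 9 transcripts covered a wide range of abundance. Levels of different genes were compared per kilobase of gene length. In both groups, zym1 and tpx1 were the most abundant and srx1 the least. In aal1-pOE the means were 1404.5 ± 369.5 for zym1, 817 ± 187 for tpx1, 510.3 ± 191 for gpx1, 429 ± 130.1 for sod1, 228 ± 37.3 for ctt1, 197 ± 113 for gst1, 37.2 ± 3.59 for trr1, 18.5 ± 6.54 for gst2 and 2.88 ± 1.24 for srx1, in TMM-scaled CPM per kb (SD, n = 3). In evc they were 3142 ± 676 for zym1, 1951 ± 809.8 for tpx1, 661 ± 54.0 for gpx1, 321 ± 85.0 for sod1, 288 ± 29.0 for gst1, 259 ± 29.2 for ctt1, 35.1 ± 2.31 for trr1, 13.5 ± 5.29 for gst2 and 1.95 ± 1.23 for srx1, in the same unit. The order was the same in both groups apart from ctt1 and gst1. Among neighbours in aal1-pOE, the library values overlapped for tpx1 and gpx1, gpx1 and sod1, and ctt1 and gst1, and the others lay apart. In evc, those of zym1 and tpx1, sod1 and gst1, and gst1 and ctt1 overlapped, and the others lay apart. By its mean over the 6 libraries, without regard to length, zym1 stood at the 97.7 percentile of tested genes, tpx1 at 97.3, ctt1 at 94.1, gpx1 at 92.4, sod1 at 88.5, gst1 at 85.7, trr1 at 62.0, gst2 at 41.9 and srx1 at 3.73.

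The catalase gene ctt1 (SPCC757.07c) lies on the minus strand of chromosome III from 56654 to 58833 (build ASM294v3, which holds for all coordinates here). Its level was 570.1, 410 and 514 CPM in replicates 1, 2 and 3 of aal1-pOE, against 493, 616 and 585 CPM in evc. The groups overlapped. This gave a log2 fold change of -0.18 ± 0.27 (SE; 95% interval -0.79 to 0.43, edgeR adjusted p = 0.669). With library totals it was 0.49 (adjusted p = 0.0866), below the median of all genes on that scale.

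The superoxide dismutase gene sod1 (SPAC821.10c, chromosome I, minus strand, 1002838 to 1003600) encodes the enzyme that turns superoxide into peroxide. It stood at 355, 217 and 410.1 CPM in the aal1-pOE libraries, against 319, 201 and 214 CPM in evc. In each group, the library that stood apart from its fellows lay apart here too, low in aal1-pOE replicate 2 and high in evc replicate 1. This gave a log2 fold change of 0.42 ± 0.31 (SE; 95% interval -0.28 to 1.12, edgeR adjusted p = 0.388). Without these 2 libraries, which were picked from these same data, it was 0.88 (adjusted p = 0.00028). With library totals it was 1.02 (adjusted p = 0.0452), beside a median of 0.80 for all genes. On that scale 517 of 5823 tested genes were called higher and 154 lower. Those 2 settings alone among 17 alternatives called sod1 higher.

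The glutathione peroxidase gene gpx1 (SPBC32F12.03c, chromosome II, minus strand, 2788863 to 2789587) also acts on peroxide. Its level was 467, 212 and 432 CPM in the aal1-pOE libraries, against 459.5, 524 and 454 CPM in evc. Replicate 2 was the low library in aal1-pOE, and the other 2 lay close to the evc values. This gave a log2 fold change of -0.37 ± 0.33 (SE; 95% interval -1.12 to 0.37, edgeR adjusted p = 0.463). It was -0.08 without aal1-pOE replicate 2 and 0.22 with library totals.

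The peroxiredoxin gene tpx1 is known in a double role. In S. pombe, Tpx1 both removes peroxide and passes the peroxide signal on to Pap1 and Sty1. The gene (SPCC576.03c) lies on the minus strand of chromosome III from 2084942 to 2085719. It had 7087, 11151 and 4353 counts in the aal1-pOE libraries, against 4731, 8777 and 8876 counts in evc. On the TMM scale this gave 749, 472 and 686 CPM in the aal1-pOE libraries, against 798, 1969 and 1786 CPM in evc. The groups did not overlap, but evc replicate 1 lay far closer to aal1-pOE than to the other evc libraries. The log2 fold change was -1.26 ± 0.41 (SE; 95% interval -2.18 to -0.33), with an unadjusted p of 0.0131 and an edgeR adjusted p of 0.0949, which missed the threshold. Without evc replicate 1 the gene was called lower (log2 fold change -1.56, adjusted p = 0.0412), and without evc replicate 2 or evc replicate 3 the adjusted p was 0.333 and 0.317. By library totals the groups overlapped, with a log2 fold change of -0.59 (adjusted p = 0.148).

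The partners of Tpx1 were measured beside it. Thioredoxin reductase, which keeps thioredoxin reduced with NADPH, is encoded by trr1 (SPBC3F6.03, chromosome II, plus strand, 4189799 to 4191448). With TMM its range was the narrowest of the 9, at 65.9, 63.5 and 54.7 CPM in the aal1-pOE libraries, against 54.8, 56.8 and 62.2 CPM in evc. The fitted log2 fold change was 0.08 ± 0.19 (SE; 95% interval -0.35 to 0.52, edgeR adjusted p = 0.787), and all 6 libraries lay within 0.27 on the log2 scale. With library totals it ran from 56.6 to 114 CPM in aal1-pOE and from 43.3 to 47.9 CPM in evc. The log2 fold change was then 0.81 (adjusted p = 0.0859), beside a median of 0.80 for all genes on that scale. The sulfiredoxin gene srx1 (SPBC106.02c, chromosome II, minus strand, 376253 to 377012) was barely expressed. It had 31, 37 and 11 counts in the aal1-pOE libraries, against 12, 9 and 2 counts in evc. By library totals these were 3.52, 2.81 and 1.79 CPM in the aal1-pOE libraries, against 1.72, 1.54 and 0.310 CPM in evc. The exact 95% Poisson interval of the single library values, which covers counting error only, was 0.896 to 3.21 CPM in aal1-pOE replicate 3 and 0.0376 to 1.12 CPM in evc replicate 3. With TMM the groups overlapped, and the log2 fold change was 0.55 ± 0.69 (SE; 95% interval -1.01 to 2.11, edgeR adjusted p = 0.612). It ran from 0.12 without evc replicate 3 to 0.86 without evc replicate 1, and it was 1.18 with library totals, without overlap (adjusted p = 0.207).

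The glutathione transferase genes showed no shared pattern. The gst1 gene (SPCC191.09c, chromosome III, minus strand, 1719143 to 1720070) stood at 191, 73.7 and 282 CPM in the aal1-pOE libraries, against 247, 257 and 298 CPM in evc. Over the 6 libraries its range was the widest after srx1 and tpx1, and its lowest library was again aal1-pOE replicate 2. The log2 fold change was -0.55 ± 0.42 (SE; 95% interval -1.48 to 0.38, edgeR adjusted p = 0.391). Leaving out aal1-pOE replicate 2 gave -0.16, leaving out replicate 3 of that group gave -1.01, and library totals gave -0.01, none of them called. The gst2 gene (SPCC965.07c, chromosome III, minus strand, 2294617 to 2296105) was lower in abundance, at 35.0, 31.2 and 16.6 CPM in the aal1-pOE libraries, against 29.2, 15.0 and 16.1 CPM in evc. The fitted log2 fold change was 0.46 ± 0.38 (SE; 95% interval -0.40 to 1.31, edgeR adjusted p = 0.437). Leaving out evc replicate 1 gave 0.83, leaving out replicate 1 of aal1-pOE gave 0.27, and library totals gave 1.19, again without a call. The median of all genes with library totals was 0.80. The coding sequences of gst1 and gst2 were 76.7% identical, with a longest identical run of 19 bases, and no stretch of 40 bases of any of the 9 genes occurred a second time in the genome.

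The metallothionein gene zym1 (SPAC22H10.13, chromosome I, plus strand, 2381666 to 2382200), whose product binds zinc, was the most abundant member. It had 7900, 21113 and 3335 counts in the aal1-pOE libraries, against 7488, 8383 and 9435 counts in evc. On the TMM scale it stood at 835, 894 and 526 CPM in the aal1-pOE libraries, against 1263, 1881 and 1899 CPM in evc. The groups did not overlap, and evc replicate 1 was again the evc library nearest to aal1-pOE. The log2 fold change was -1.16 ± 0.36 (SE; 95% interval -1.97 to -0.36), with an unadjusted p of 0.00958 and an edgeR adjusted p of 0.0811, which missed the threshold. Without aal1-pOE replicate 2 the gene was called lower (log2 fold change -1.29, adjusted p = 0.0226), and without any other single library the adjusted p lay between 0.0756 (evc replicate 1) and 0.301 (evc replicate 3). By library totals its groups overlapped, since aal1-pOE replicate 2 was then the highest of all 6 libraries at 1604 CPM, and the log2 fold change was -0.38 (adjusted p = 0.419).

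With aal1-pOE replicate 2 and evc replicate 1 both left out, zym1 and tpx1 were called lower and sod1 higher. The log2 fold changes were then -1.47 for zym1 (edgeR adjusted p = 0.00025), -1.39 for tpx1 (adjusted p = 6.2e-06) and 0.88 for sod1. That setting called 1085 genes higher and 1131 lower of 5604 tested. The libraries left out had been picked from these data because they stood apart, and dropping them narrows the spread within the groups. These p-values, from 2 libraries per group, therefore add no separate support for the calls.

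The count of genes without overlap depended on the scaling. With TMM, 2 of the 9 genes lay lower in every aal1-pOE library than in any evc library and 0 lay higher, where 19.1% of all tested genes lay lower and 18.4% higher in this way. With library totals, ctt1, sod1, srx1 and trr1 lay higher and 0 genes lower, where 47.2% of all tested genes lay higher and 6.29% lower. The counts of 2 lower with TMM and 4 higher with library totals were near these backgrounds.

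**Figure D2:**
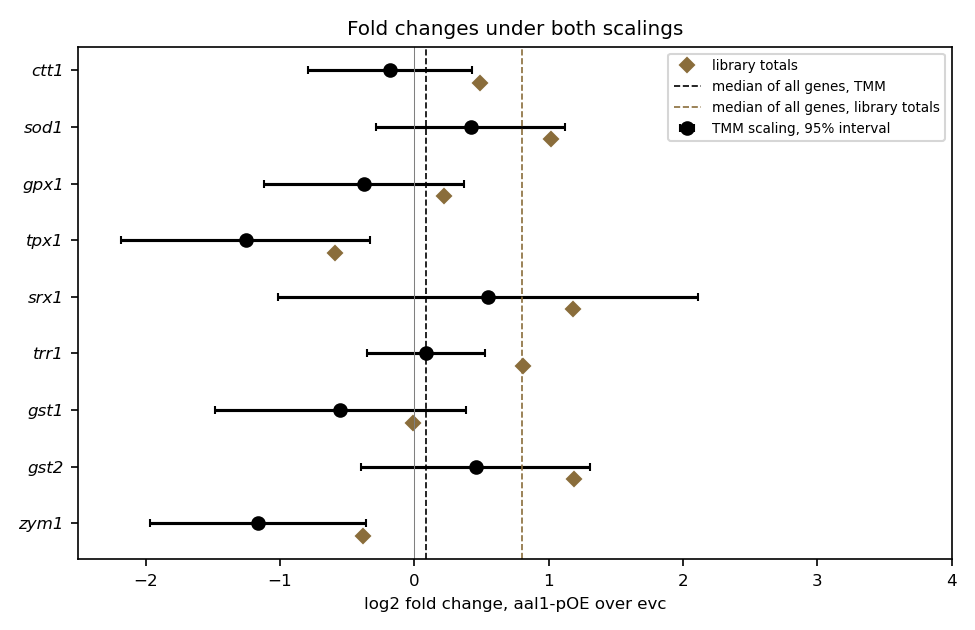
Log2 fold change of each antioxidant gene, aal1-pOE over evc, with TMM scaling (black points, bars are 95% intervals) and with library totals (brown diamonds); dashed lines mark the median of all genes on each scale, 0.08 and 0.80. The intervals of tpx1 and zym1 lie below 0 with TMM. Like ctt1, gpx1 and gst1, both genes lie below the median of all genes on either scale. The values of ctt1 and gpx1 change sign between the scales.

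Ratios of counts within a library do not depend on the scaling, and those of tpx1 and zym1 to other members were taken after their values had been seen. The ratio of tpx1 to ctt1 was 1.31, 1.15 and 1.34 in replicates 1, 2 and 3 of aal1-pOE, against 1.62, 3.20 and 3.05 in evc. The ratio of tpx1 to trr1 was 11.4, 7.43 and 12.5 in the aal1-pOE libraries, against 14.6, 34.7 and 28.7 in evc. Set against sod1, tpx1 had 2.11, 2.17 and 1.67 times the counts in the aal1-pOE libraries, against 2.50, 9.78 and 8.36 times in evc. In each of these, the aal1-pOE libraries lay below all evc libraries, with evc replicate 1 next to them. All of these ratios share tpx1, whose groups did not overlap with TMM, so they are not separate results. The ratio of zym1 to ctt1 was 1.46, 2.18 and 1.02 in the aal1-pOE libraries, against 2.56, 3.06 and 3.24 in evc, again without overlap. The ratio of zym1 to tpx1, by contrast, was 1.11, 1.89 and 0.766 in the aal1-pOE libraries, against 1.58, 0.955 and 1.06 in evc, and overlapped. Those of gst1 to gst2 and of sod1 to ctt1 overlapped too. The smallest p that an exact permutation of 3 against 3 libraries can give is 0.10, so no test was made of these ratios.

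**Figure D3:**
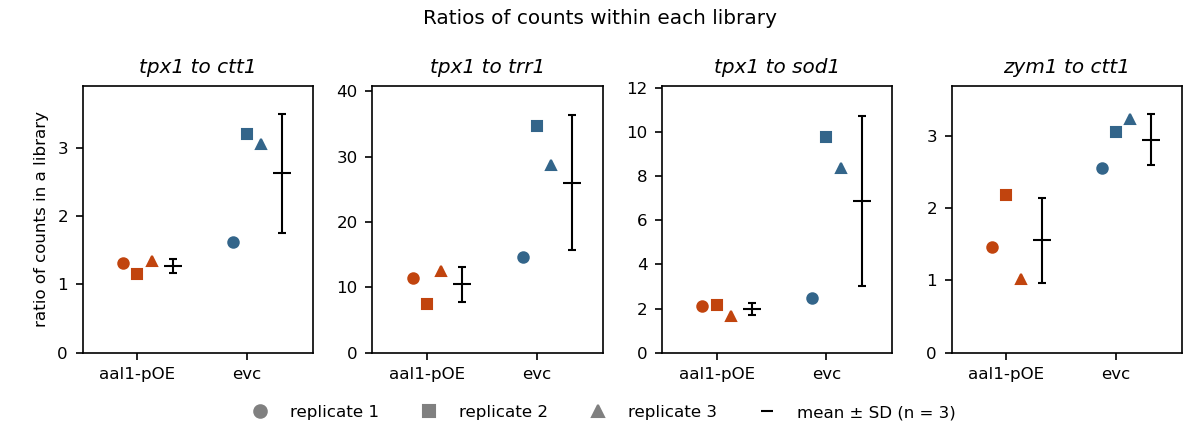
Ratio of counts within each library (vertical axes, from 0) of tpx1 to ctt1, trr1 and sod1 and of zym1 to ctt1, aal1-pOE left of evc; symbols mark replicates and the black bars give the mean ± SD of 3 libraries. All aal1-pOE points lie below all evc points, and evc replicate 1 is the lowest evc point in each panel.

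The libraries were also read one by one, each against the mean of evc on the log2 scale. The median of the 9 genes was 0.02, -0.46 and -0.13 in replicates 1, 2 and 3 of aal1-pOE, and -0.08, 0.13 and 0.06 in evc. In aal1-pOE replicate 2, gst1 was at -1.85, tpx1 at -1.58, gpx1 at -1.18 and zym1 at -0.89. In evc replicate 1, tpx1 was at -0.82 and zym1 at -0.39, while gst2 was at 0.60 and sod1 at 0.41. For each of these genes that library lay on the aal1-pOE side of the other evc libraries.

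Non-coding genes overlap several members. Counting used the strand, so antisense genes were counted apart, but reads on bases shared by genes of the same strand count for neither in the default mode of HTSeq, which the stated command left as it was. At tpx1, SPNCRNA.1258 covers 89 bases of the 3′ end on the same strand and had 10, 17 and 2 counts in the aal1-pOE libraries, against 11, 7 and 13 in evc. SPNCRNA.1259 covers 22 bases of the 5′ end and had 2, 7 and 2 counts in the aal1-pOE libraries, against 9, 9 and 5 in evc. Both were far below the counts of tpx1. At srx1, SPNCRNA.1350 overlaps the 5′ end by 37 bases on the same strand and had 57, 189 and 7 counts in the aal1-pOE libraries, against 24, 20 and 32 in evc, more than srx1 itself in 5 of the 6 libraries. Antisense to gst1, SPNCRNA.1222 had 3, 61 and 1 counts in the aal1-pOE libraries, against 1, 0 and 3 in evc, and did not pass the filter. Its highest library, aal1-pOE replicate 2, was the lowest of gst1 and also the library with the most counts in total. A link between these genes was not tested. Antisense to trr1, SPNCRNA.1678 had 34, 116 and 34 counts in the aal1-pOE libraries, against 15, 5 and 15 in evc, with a log2 fold change of 1.04 ± 0.55 (SE; edgeR adjusted p = 0.245).

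Genes with the most similar profile over the 6 libraries were sought for the 3 members of the widest range, srx1, tpx1 and gst1. Likeness was the root mean square difference of log2 levels, each centred on its own mean, over 4592 genes that averaged 10 CPM or more (4593 for srx1). The nearest to tpx1 were tps3, annotated as a trehalose-phosphate synthase (difference 0.10), and gnd1, the phosphogluconate dehydrogenase of the pentose phosphate pathway (0.13). By library totals, tps3 stood at 1115, 1099.6 and 1041 CPM in the aal1-pOE libraries, against 994, 1858 and 1712 CPM in evc. Like tpx1, it was low in evc replicate 1. The nearest to gst1 were the non-coding RNA SPNCRNA.785 (0.057) and rrk1, the RNA of RNase P (0.079). The nearest to srx1 were SPAC1687.17c, of the Der1 family (0.38), and SPNCRNA.851 (0.42), both less alike.

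The stretch of 250 bases before to 50 after each gene start, as RefSeq gives it, was searched on both strands for sites of the stress factors. The motifs were TGACGT, the core of the CRE site of Atf1 and Pcr1, TTACGTAA, a palindromic Pap1 site, and the AP-1-like TTAGTCA and TTACTAA. Of the 9 genes, 6 had at least 1 match, and over 5110 protein-coding genes 21.2% had. By motif the counts were 1 gene for TGACGT (5.91% of all genes), 1 for TTACGTAA (0.47%), 2 for TTAGTCA (4.52%) and 3 for TTACTAA (12% of all). The sites are shown with 8 bases on either side, 5′ to 3′ on the strand of the gene, motif in capitals, to show which of the searched letters each gene holds. The sites of tpx1, gst1 and the AP-1-like TTAGTCA of gst2 lie on the opposite strand and appear as their reverse complement. No match was found at sod1, trr1 and zym1.
ctt1, III from 58879 to 58900, motif starting at position -59 from the gene start: tgcaaataTGACGTtggtaatt
gpx1, II from 2789691 to 2789714, position -119: tattaattTTACGTAAatttctct
tpx1, III from 2085884 to 2085906, position -179: ctaattatTGACTAAgctcactt
gst2, III from 2296198 to 2296220, position -107: atgggtgcTGACTAAcaattatt
gst2, III from 2296218 to 2296240, position -127: gttattaaTTACTAAttaaaatg
gst1, III from 1720179 to 1720201, position -123: atgatcgaTTAGTAAgttggatg
srx1, II from 377182 to 377204, position -184: caactaccTTACTAAgaacacaa

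All 6 genes lie on the minus strand, which is the strand printed. The 2 genes with TTAGTCA, tpx1 and gst2, had log2 fold changes of -1.26 and 0.46, neither called, and zym1, with no match, was at -1.16. A match is a description of letters, and binding was not measured.

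The wider redox system was read from 44 further genes, listed by role. Of these, 1 fell, 0 rose and 43 were not called (edgeR), beside 4.64% lower and 1.36% higher of all genes. The median log2 fold change was -0.12, with 18 values above 0 and 26 below (all genes 3147 and 2676). With library totals it was 0.52, with 33 above 0 and 11 below, which lay under the median of 0.80 for all genes on that scale. At an unadjusted p under 0.05, 5 were higher and 7 lower, beside 14.6% and 12.5% of all genes. The likelihood ratio test called 3 higher and 5 lower, DESeq2 3 and 6, and limma-voom 0. The gene that fell was pmp20, which belongs to the peroxiredoxin family but is annotated as a thioredoxin-related chaperone. Its level was 115, 27.5 and 101 CPM in the aal1-pOE libraries, against 225, 405 and 420 CPM in evc. The groups did not overlap, with evc replicate 1 again nearest to aal1-pOE. The log2 fold change of pmp20 was -2.11 ± 0.50 (SE; adjusted p = 0.0398), and -1.57 with library totals (adjusted p = 0.0418). The call was lost without aal1-pOE replicate 1 (adjusted p = 0.0604), evc replicate 1 (0.0546), replicate 2 of evc (0.156) or replicate 3 of evc (0.153), where the log2 fold change stayed between -2.45 and -1.96. It was also lost with limma-voom (log2 fold change -2.19, adjusted p = 0.0588), over a range of 1.3e-06 to 0.156 in 17 alternatives.

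Around Tpx1, the cytosolic thioredoxin trx1 that reduces it had 218, 91.0 and 217 CPM in the aal1-pOE libraries, against 301, 460 and 433 CPM in evc. The fitted log2 fold change was -1.18 ± 0.36 (SE; edgeR adjusted p = 0.0806), close in size to that of tpx1, while the groups of the reductase gene trr1 overlapped. Another peroxiredoxin gene, bcp1, was at -0.22 ± 0.24 (adjusted p = 0.541), and at 0.56 with library totals, below the median of all genes there (0.80). In the glutathione branch, all 3 genes of synthesis and reduction had values above 0 with TMM, as did 3147 of 5823 genes tested. With library totals they were above 0 too, where the median of all genes was 0.80. The smallest p was that of the glutathione reductase pgr1, at 0.88 ± 0.25 with TMM (adjusted p = 0.0664). The synthesis gene gcs1 was at 0.21 ± 0.20 (adjusted p = 0.505), and its groups overlapped with TMM. The level of pgr1 was 39.5, 55.0 and 45.1 CPM in the aal1-pOE libraries, against 30.0, 20.9 and 24.95 CPM in evc, without overlap. Glutaredoxins, which reduce mixed disulfides with glutathione, lay on both sides. Of these, grx3 was at 1.81 ± 0.51 (adjusted p = 0.0664) from 67, 290 and 41 counts in the aal1-pOE libraries, against 15, 8 and 15 in evc. The dithiol glutaredoxin grx1 was at -1.40 ± 0.41 (adjusted p = 0.0711).

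The remaining roles held no call either in this fit. Among 17 alternatives (16 for grx3), win1 and gnd1 were called in 6 each, and trx1, grx1, pgr1 and grx3 in 5 each. The counts were 4 for pyp1, 3 for zrt1 and 1 for ccs1, and all these genes kept their sign throughout. Each count includes the fit lacking the 2 libraries that had been picked from these data, and ccs1 was called there alone. That fit called 1085 genes higher and 1131 lower of 5604 tested, and its calls add no separate support. With library totals, where the median of all genes was 0.80, win1 was at 2.01, gnd1 at -0.62, zrt1 at -0.29 and ccs1 at -0.28. Genes named below that turned positive on that scale stayed under this median. The transferase gst3 was at -0.22 ± 0.33 (edgeR adjusted p = 0.673), and the methionine sulfoxide reductase mxr1 at -0.18 ± 0.32 (adjusted p = 0.728), and both turned positive with library totals (0.37 and 0.41). Both partners of superoxide handling were below 0, ccs1, the copper chaperone of Sod1, at -0.85 ± 0.34 (adjusted p = 0.153) and the manganese enzyme sod2 at -0.51 ± 0.30 (adjusted p = 0.285), of which sod2 was above 0 with library totals (0.25). Of the NADPH sources, gnd1 was at -1.28 ± 0.34 (adjusted p = 0.0571) and zwf1, glucose-6-phosphate dehydrogenase, at 0.50 ± 0.27 (adjusted p = 0.2499). Among 11 genes of the Sty1 pathway the median was -0.15, with 4 values above 0 and 7 below. The MAP kinase kinase kinase gene win1 had the smallest p (1.17 ± 0.34, adjusted p = 0.0687). In the other direction, pyp1 was at -1.01 ± 0.33 (adjusted p = 0.0948), lower without overlap on both scales. The gene sty1 itself was at -0.19 ± 0.24 (adjusted p = 0.624) with TMM and at 0.44 with library totals. The transcription factor genes atf1, pcr1, pap1 and prr1 were all below 0, between pcr1 at -0.66 ± 0.41 (adjusted p = 0.318) and pap1 at -0.06 ± 0.34 (adjusted p = 0.912). With library totals only pcr1 was below 0 (-0.12), and the others were between 0.18 and 0.53, still under the median of all genes there. Of 4 Pap1-dependent genes, the transporter gene bfr1 had the smallest p (-0.56 ± 0.34, adjusted p = 0.306, but 0.09 with library totals) and obr1 was at 0.13 ± 0.28 (adjusted p = 0.772). Of the genes of zinc handling, which concern zym1, the zinc importer zrt1 had 1072, 717 and 1290.5 CPM in the aal1-pOE libraries, against 1741, 2071 and 2000 CPM in evc, at -0.92 ± 0.35 (adjusted p = 0.139). The repressor loz1 was at 0.32 ± 0.45 (adjusted p = 0.648).

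**Figure D4:**
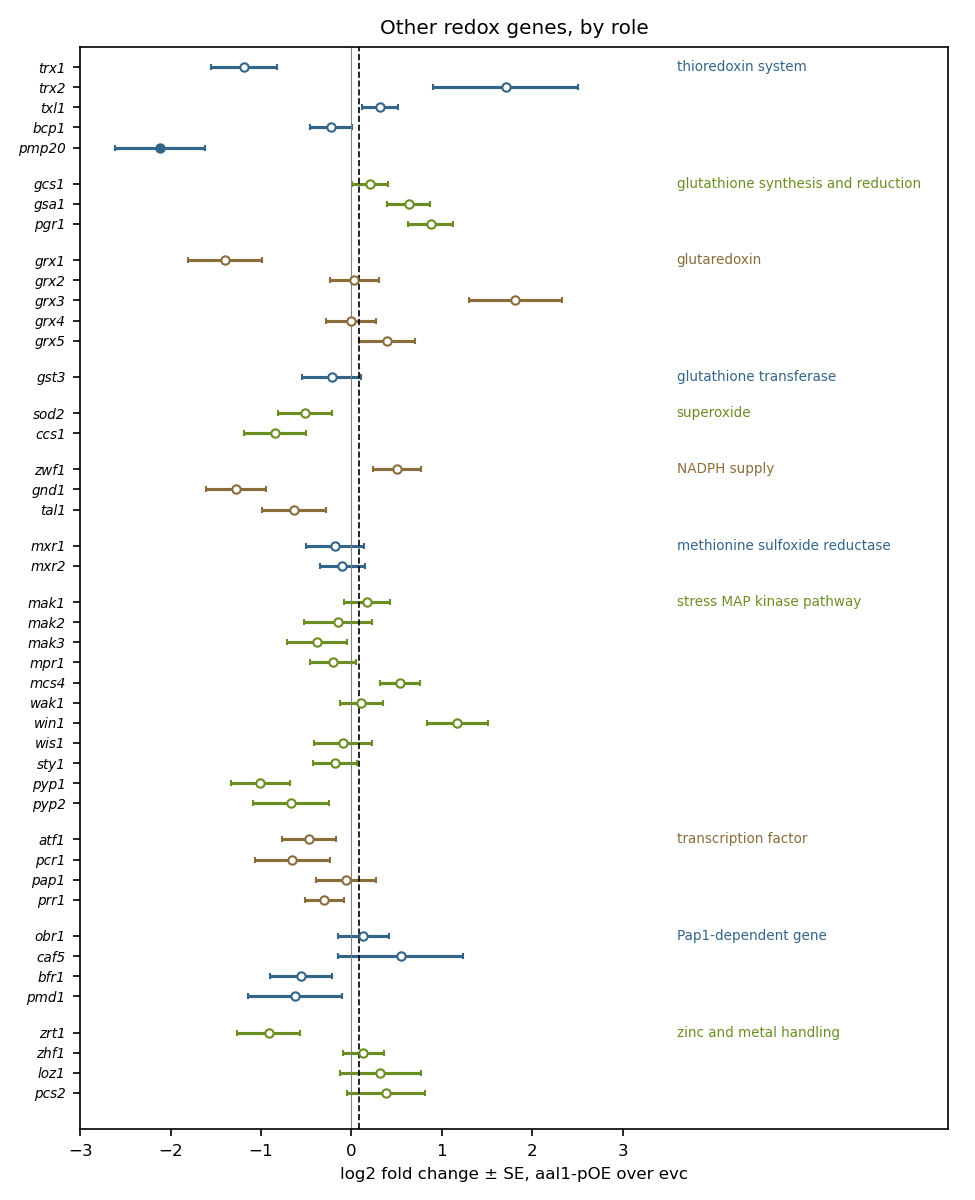
Log2 fold change ± SE, aal1-pOE over evc, of 44 further redox genes grouped by role, from edgeR with TMM scaling; the filled point (pmp20, -2.11) was called and open points were not, and the dashed line marks the median of all genes at 0.08. The genes of 6 of the 11 roles lie on both sides of 0 on this scale, and wak1 is the gene that RefSeq names wis4.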

How the data were processed

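RNA was extracted on spin columns, rRNA was depleted with Ribo-Zero, and stranded libraries were sequenced in paired ends. Per the labels and the study's methods, the authors moved molecular indices to the read names, mapped reads with STAR 2.6.1a on the genome from PomBase and counted them per gene with HTSeq 0.12.3. The deposited values were raw whole-number counts per gene, with replicates not pooled. A step collapsing duplicates and the genome build were not given in the sources used here.

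Counts of 6952 genes (6805 matched to RefSeq ASM294v3, which gave names, coordinates and sequences) were tested with edgeR 4.0.16 in R 4.3.3, with TMM factors, strain as the factor, Benjamini-Hochberg adjustment, and a filter of more than 1 CPM in at least 3 libraries, which left 5823. The threshold for a call was an adjusted p of 0.05. The SE was derived as the size of the log2 fold change divided by the root of the F statistic. All adjusted p-values come from this test unless another is named. The labels name the replicates biological.

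The 9 genes, the redox list and the tests were chosen with earlier results of these data known. Named genes were all 9, the called genes of the redox list and the smallest p of each role, with others beside them chosen after their values were seen. Of 47 redox names, gto3 had no match, and gto1 and gto2 were left out because RefSeq annotates them as alpha-glucosidases. Alternatives were DESeq2 1.42.0, its size factors, library totals, TMM without ribosomal protein genes, other filters (1 count, 10 CPM), protein-coding genes alone, the likelihood ratio test, limma-voom (limma 3.58.1), a replicate block, leaving out libraries, and summing gst1 with gst2. The script was tested on simulated data.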

Additional observations from a re-analysis of the deposited data

How the results depend on the processing

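The pattern of 0 called antioxidant genes held with DESeq2 size factors, TMM without ribosomal protein genes, other filters, protein-coding genes alone and limma-voom. Library totals called 1 higher (sod1), the likelihood ratio test and DESeq2 each called 2 lower (tpx1 and zym1), and leaving out both aal1-pOE replicate 2 and evc replicate 1 called 1 higher and 2 lower. Leaving out single libraries called 0 to 1 lower and 0 higher. Of the redox list, 3 higher were called with library totals, 3 higher and 5 lower by the likelihood ratio test, 3 and 6 by DESeq2, 0 lower by limma-voom, 2 lower with the 10 CPM filter, and 7 higher and 12 lower without both libraries. Leaving out single libraries gave 0 to 2 higher and 0 to 6 lower. Keeping gto1 and gto2 changed neither count.

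Over all genes, 79 were called higher and 270 lower. Library totals called 517 and 154 (77.0% of the called genes higher, against 22.6% with TMM), the likelihood ratio test 397 and 472, DESeq2 393 and 512, limma-voom 19 and 235, and the fit without both libraries 1085 and 1131. Leaving out single libraries gave 1 to 252 higher and 81 to 518 lower.

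With library totals the log2 fold change of ctt1 became 0.49 and that of gpx1 0.22. With gst1 and gst2 summed, the joint value was -0.45, opposite to gst2 alone. In 141 other fits of single antioxidant genes the sign and the call were kept, and 10 gained a call. The deviations of same-numbered libraries from their group means had correlations of 0.033, 0.0097 and 0.0065. Those of differently numbered libraries ran from -0.026 to 0.0082. With 3 libraries per group, these values cannot show whether the replicate numbers pair the samples. A replicate block called 247 genes higher and 383 lower, 0 antioxidant genes, and 1 higher and 3 lower of the redox list. The 10 CPM filter left srx1 untested.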
